A study of Homo sapiens with 6 samples.

Results

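Desmosomes are the cell-cell junctions that tie the keratin filaments of neighboring epithelial cells together. Their calcium-dependent cadherins, the desmogleins (DSG) and desmocollins (DSC), bridge the gap between cells, the armadillo proteins plakoglobin and the plakophilins (PKP) bind the cadherin tails, and the plakin desmoplakin (DSP) anchors the keratins. Periplakin (PPL) and envoplakin (EVPL) are related plakins that associate with desmosomes and with the cornified envelope of squamous epithelia. Basal mammary epithelial cells, like keratinocytes, carry desmosomes, and their loss is one of the changes described in epithelial-to-mesenchymal transition (EMT).

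The 10 genes described here, DSG2, DSG3, DSC2, DSC3, DSP, PKP1, PKP2, PKP3, PPL and EVPL, were taken by name from the 26334 gene rows of the count table, and all 10 had a row. Libraries came from MCF10DCIS.com, a human breast cancer cell line with basal features that forms lesions resembling ductal carcinoma in situ. The 3 shLuc control libraries were made from cells infected with a vector carrying a hairpin against luciferase, and the 3 shWDR5 libraries from cells infected with the same backbone directed against WDR5, the WD40 protein that sits at the core of histone H3 lysine 4 methyltransferase complexes. All cells went through the same puromycin selection (3 µg/ml) and grew in the same medium, with 5% horse serum and 1.05 mM CaCl2. The study pooled WDR5 hairpins in this line, but the labels give neither the hairpin or hairpins in these cells nor any statement that the 3 libraries of a group came from separate cultures, so the p-values measure the spread between these libraries, which may be technical.

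The libraries held between 38218108 and 57640167 counted reads. WDR5 itself was at 16.5, 15.2 and 16.1 RPKM in the shLuc libraries and at 7.34, 7.65 and 6.52 RPKM in the shWDR5 libraries, a log2 fold change of -1.15 ± 0.07 (SE, adjusted p = 8.67e-07), lower in 3 of 3 libraries. RPKM is the read count scaled by exon length and by library size, with TMM factors applied to the latter. All 7 markers of basal mammary epithelium exceeded 0.5 RPKM. Their summed level was 2644 to 2886 RPKM in shLuc and 4482 to 5112 RPKM in shWDR5. KRT17 was the largest part of that sum, at a mean of 1372 RPKM in shLuc and 2624 RPKM in shWDR5. In shWDR5, 6 of the 7 were higher and EPCAM, a general epithelial marker kept in that list, was lower. Among the fibroblast markers LUM was at 0 in all 6 libraries and COL1A2, COL3A1 and DCN were at or near 0, while COL1A1 was expressed and called lower and made up most of the summed level of 3.7 to 4.0 RPKM in shLuc and 2.52 to 3.01 RPKM in shWDR5. Among the leukocyte markers CD3E was at 0 and PTPRC near it, and CD68 made up most of the summed 5.62 to 7.03 RPKM in shLuc and 5.56 to 6.64 RPKM in shWDR5. The 3 endothelial markers summed to 1.72 to 1.79 RPKM in shLuc and 1.05 to 1.19 RPKM in shWDR5, mostly PECAM1, with VWF near 0. The luminal markers GATA3 and FOXA1 were present, at a summed 4-marker level of 18.7 to 22.0 RPKM in shLuc and 14.4 to 16.3 RPKM in shWDR5 and PGR near 0. The part of these marker shifts in the desmosome results was not tested.

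The promoters of DSG3, DSG2 and DSP are shown here, and those found for DSC2, DSC3 and PKP1 are not printed. DSG3 and DSG2 were chosen as neighboring genes of which DSG3 was called and DSG2 was not. DSP was chosen as the called plakin for which a promoter was found. DSG3 and DSG2 lie next to each other on the same strand of chromosome 18; DSG3 fell and DSG2 did not pass the test. DSP, on chromosome 6, rose. A promoter was found in the RefSeq table (build GRCh38.p14) for 6 of the 10 members, and PKP2, PKP3, PPL and EVPL had none. The 250 bases before the annotated start are printed 5′ to 3′ on the gene's strand, which is the plus strand for all 3 genes. Capitals mark CAGGTG or its reverse complement CACCTG, the E-box to which SNAI and ZEB repressors are known to bind.
DSG3 (chr18:31447491-31447740): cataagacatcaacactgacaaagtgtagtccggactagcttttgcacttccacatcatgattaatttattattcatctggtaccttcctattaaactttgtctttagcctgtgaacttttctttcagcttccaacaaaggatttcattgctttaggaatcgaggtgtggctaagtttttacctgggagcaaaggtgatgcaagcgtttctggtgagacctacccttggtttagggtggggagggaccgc
DSG2 (chr18:31497927-31498176): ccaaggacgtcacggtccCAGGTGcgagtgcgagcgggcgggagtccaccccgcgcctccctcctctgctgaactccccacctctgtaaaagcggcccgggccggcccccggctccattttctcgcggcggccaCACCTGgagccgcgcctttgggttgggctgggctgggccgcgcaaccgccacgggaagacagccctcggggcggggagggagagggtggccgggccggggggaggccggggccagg
DSP (chr6:7541421-7541670): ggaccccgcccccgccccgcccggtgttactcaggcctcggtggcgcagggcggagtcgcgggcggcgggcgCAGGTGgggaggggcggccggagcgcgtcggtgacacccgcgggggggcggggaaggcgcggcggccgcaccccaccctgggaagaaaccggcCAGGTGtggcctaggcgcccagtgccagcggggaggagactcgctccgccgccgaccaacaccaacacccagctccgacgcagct

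The DSG2 and DSP promoters held 2 such E-boxes each, with the first base at -232 and -116 from the start in DSG2 and at -178 and -85 in DSP. The DSG3 promoter held none. Counting both starts listed for DSC2, 3 of the 7 member promoters had a match, beside 17.5% of the 35116 promoters in the table over the same 250 bases. No member promoter matched CACGTG (MYC and MAX, 6.34% of all promoters), AACNNGTT (grainyhead-like factors, 3.0%), TGANTCA (AP-1, 6.57%) or GGAATG (TEAD, 11.9%) on either strand. The DSG3 promoter had the lowest share of G and C of the 7 member promoters, at 42.8%, with 4 CpG dinucleotides. DSG2, at 75.2% and 26, and DSP, at 78.0% and 33, had the highest. The others lay at 59.6% and 66.8% (DSC2), 60.4% (DSC3) and 67.6% (PKP1), with 12 to 19 CpG dinucleotides. The median over all promoters was 58% G and C. A match is a description of these letters and says nothing of binding in these cells.

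On the RPKM scale, 9 of the 10 desmosome genes lay between 21.0 and 61.3 RPKM on average in the control cells. In shLuc, DSG2 was the highest at 61.3 ± 2.19 RPKM (SD, n = 3), followed by DSP at 55.9 ± 0.09, PPL at 51.7 ± 2.41 and PKP3 at 49.0 ± 1.38 RPKM, the last pair with overlapping ranges. DSG3, DSC2 and DSC3 followed at 36.5 ± 2.18, 36.4 ± 3.97 and 35.7 ± 3.08 RPKM, with overlapping ranges, and PKP2 and EVPL at 21.7 ± 1.17 and 21.0 ± 0.51 RPKM also overlapped. PKP1 was near 0. In shWDR5 cells DSP moved to the first place at 77.7 ± 5.25 RPKM and PPL, whose range overlapped that of PKP3 in shLuc, to the sixth, below PKP3, at 30.8 ± 0.83 RPKM.

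**Figure D1:**
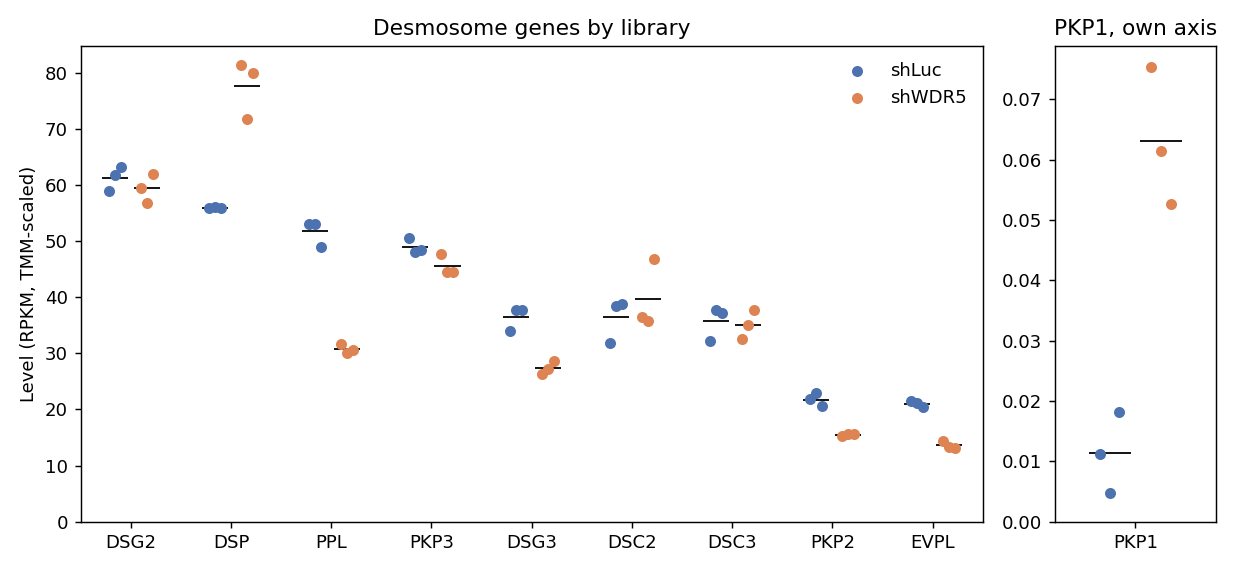
Level of each desmosome gene in RPKM (TMM-scaled) in the 3 shLuc and 3 shWDR5 libraries, one point per library, with a line at each group mean; PKP1 has its own axis. The shWDR5 points of DSP and PKP1 lie above those of shLuc, the shWDR5 points of PPL, EVPL, PKP2, DSG3 and PKP3 lie below, and those of DSG2, DSC2 and DSC3 overlap.

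To ask which desmosome genes changed upon WDR5 silencing, shWDR5 was compared with shLuc over the 16117 genes that passed the filter on low counts, with edgeR's quasi-likelihood test and a threshold of 0.05 on the adjusted p. DSP was higher and PPL, EVPL, PKP2 and DSG3 were lower in shWDR5 cells, while DSG2, DSC2, DSC3 and PKP3 did not pass. PKP1 was called higher too, but it passed the filter on low counts only through the shWDR5 libraries, where it was high, so its call supports nothing. With PKP1 counted, the 6 members called out of 10 stand beside 56.5% of all genes tested, the 2 higher beside 26.6% and the 4 lower beside 29.9%, so the share called is near that of the whole transcriptome. With the added demands of a log2 fold change of at least 0.6 either way and over 0.5 RPKM, PPL and EVPL were called, both lower, beside 18.4% of all genes, 10.5% lower and 7.9% higher. With PKP1 again counted, the groups did not overlap in 7 of the 10 members, beside 62.3% of all genes tested. The median log2 fold change of the members was -0.08, against -0.01 over all genes tested. Without PKP1 the median of the other 9 was -0.11. In bulk RNA, fewer cells carrying a transcript cannot be told apart from less of it per cell.

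**Figure D2:**
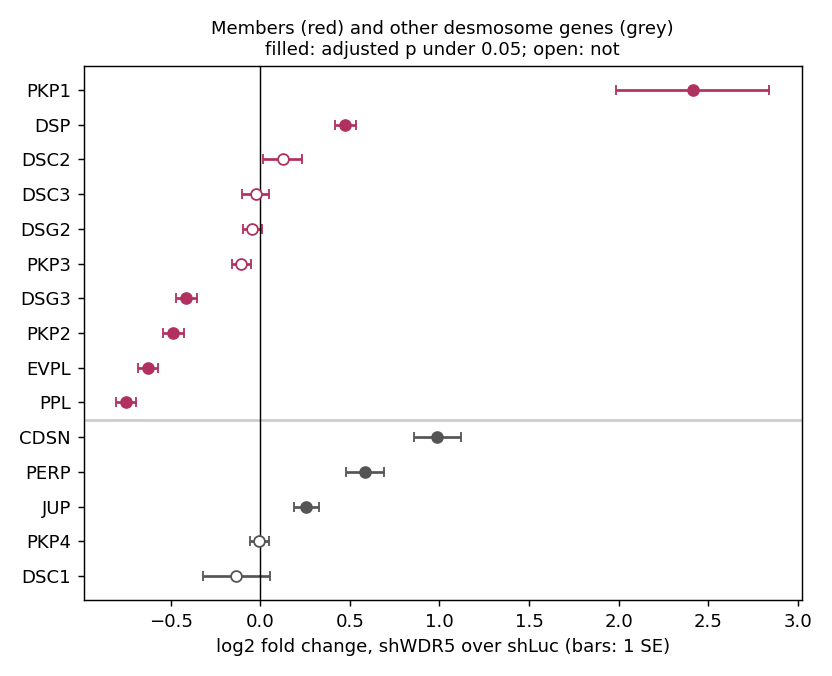
Log2 fold change of shWDR5 over shLuc with 1 SE for the 10 members (upper block) and for the other desmosome genes that were tested (lower block); filled points passed the adjusted p threshold. The members range from -0.75 (PPL) to 2.41 (PKP1), with 4 below and 2 above zero past the threshold, PKP1 among the latter.

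Among the desmosomal cadherins, DSG3, the desmoglein of the basal and suprabasal layers of stratified epithelia and an autoantigen of pemphigus vulgaris, was the member that changed. It measured 34.0, 37.7 and 37.7 RPKM in shLuc and 26.4, 27.2 and 28.7 RPKM in shWDR5. Every shWDR5 library was below every shLuc library, with a log2 fold change of -0.41 ± 0.06 (SE, adjusted p = 0.000224), or 1.33-fold lower.

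DSG2, the most widely expressed desmoglein, measured 58.9, 61.7 and 63.2 RPKM in shLuc and 59.4, 56.8 and 62.0 RPKM in shWDR5. The groups overlapped, and the log2 difference of -0.04 ± 0.05 did not pass (adjusted p = 0.518), with a 95% interval by limma-voom of -0.16 to 0.07. The 171 exon bases shared with the antisense gene DSG2-AS1 cannot be assigned to a strand in these libraries. That gene held 17 to 36 reads a library, which does not show how many reads fell in the shared bases. Within each library the ratio of DSG3 to DSG2, which needs no library size, was 0.577, 0.611 and 0.597 in shLuc and 0.444, 0.478 and 0.462 in shWDR5. The log2 ratio differed by -0.37, with no overlap between groups and an exact two-sided permutation p of 0.1, the smallest that 3 against 3 libraries allow (0.125 after Benjamini-Hochberg adjustment over the 5 ratios tested).

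DSC2, the desmocollin found in most epithelia, measured 31.8, 38.5 and 38.9 RPKM in shLuc and 36.5, 35.8 and 46.7 RPKM in shWDR5. The high value was shWDR5 replicate 3, and the groups overlapped, with a log2 difference of 0.12 ± 0.11 (adjusted p = 0.357, 95% interval -0.12 to 0.36). Without shWDR5 replicate 3 the difference was -0.0097. DSC3, the desmocollin of basal cells, measured 32.2, 37.8 and 37.3 RPKM in shLuc and 32.5, 35.0 and 37.8 RPKM in shWDR5. These values overlapped almost completely, with a log2 difference of -0.03 ± 0.08 (adjusted p = 0.793, 95% interval -0.19 to 0.14). The ratio of DSC3 to DSC2 overlapped between groups too, at 0.959 to 1.01 in shLuc and 0.809 to 0.977 in shWDR5 (exact permutation p = 0.2).

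The 4 cadherins together summed to 170 ± 11.3 RPKM in shLuc and 162 ± 11.9 RPKM in shWDR5, and the sums overlapped. DSG3 took 21.5% ± 0.17 of the sum in shLuc and 17.0% ± 0.60 in shWDR5. The share of DSC2 was 21.4% ± 0.95 in shLuc and 24.5% ± 1.92 in shWDR5, also without overlap. DSG2 had the largest share in both groups, at 36.1% ± 1.26 and 36.8% ± 1.50, and DSC3 had 21.0% ± 0.48 and 21.7% ± 0.81.

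All 4 genes belong to the desmosomal cadherin cluster on chromosome 18, which in the hg19 coordinates of the count table runs from the end of DSC3 to the end of DSG2 (chr18:28569331-29128814). DSC3, DSC2 and DSC1 lie on the minus strand and DSG1, DSG4, DSG3 and DSG2 on the plus strand. The cluster was active at its ends and nearly silent in between. DSC1 held 31 to 52 reads a library, DSG4 held 1 to 8 and DSG1, the desmoglein of differentiated epidermal layers, held 0 to 2, while the 4 outer genes held 6779 to 18238. DSG3 and DSG2 are separated by 19.4 kb, and the difference between them was tested only by their ratio, which could not go below an exact permutation p of 0.1. DSC1 did not pass the test (log2 fold change -0.13 ± 0.19, adjusted p = 0.571). The number of merged exons was alike across the expressed cadherins, with 15 in DSG2, 16 in DSG3 and 17 in each of DSC2 and DSC3.

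The plakophilins, armadillo proteins that link the cadherin tails to desmoplakin, were led by PKP3. PKP3 (chr11:392599-404908) measured 50.6, 48.1 and 48.4 RPKM in shLuc and 47.6, 44.5 and 44.5 RPKM in shWDR5. Every shWDR5 value was below every shLuc value, but the log2 difference of -0.11 ± 0.05 did not pass (adjusted p = 0.119, 95% interval -0.22 to 0.01). It did pass when libraries were scaled by their totals alone (log2 difference -0.16, adjusted p = 0.0196).

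PKP2, the plakophilin of simple epithelia and of the heart, where its mutations cause arrhythmogenic cardiomyopathy, lies at chr12:32943680-33049780. It measured 21.8, 22.9 and 20.5 RPKM in shLuc and 15.3, 15.7 and 15.6 RPKM in shWDR5. All shWDR5 libraries were lower, with a log2 fold change of -0.49 ± 0.06 (adjusted p = 4.86e-05), or 1.40-fold lower. The ratio of PKP2 to PKP3 within a library was 0.431, 0.476 and 0.425 in shLuc and 0.322, 0.352 and 0.349 in shWDR5, a log2 difference of -0.38 without overlap (exact permutation p = 0.1).

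PKP1, the plakophilin of stratified epithelia (chr1:201252580-201302121), gave only 3, 1 and 4 reads in the shLuc libraries and 19, 19 and 13 reads in the shWDR5 libraries. As a description, since it was tested only through its counts in shWDR5, the fitted log2 fold change was 2.41 ± 0.43, and the depth-scaled ratio of the 51 shWDR5 reads to the 8 shLuc reads was 5.52, with an exact 95% interval of 2.60 to 13.5 that covers counting error only. The log2 ratio of PKP1 to PKP3 differed by 2.77 and shares that limit. At 0.06 RPKM in shWDR5, PKP1 made up 0.10% of the summed plakophilin level. The plakophilin sum was 70.8 ± 1.76 RPKM in shLuc and 61.1 ± 1.65 RPKM in shWDR5, without overlap, and PKP2 took 30.7% ± 1.33 and 25.4% ± 0.94 of it.

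The plakins moved in opposite directions. DSP, the plakin that holds keratins to the desmosomal plaque, lies at chr6:7541870-7586946. It measured 55.8, 56.0 and 55.9 RPKM in shLuc and 81.4, 71.7 and 80.0 RPKM in shWDR5. The shLuc libraries were almost identical and all 3 shWDR5 libraries were higher, with a log2 fold change of 0.47 ± 0.06 (adjusted p = 6.02e-05), or 1.39-fold higher.

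PPL (chr16:4932508-4987136) measured 53.1, 53.1 and 48.9 RPKM in shLuc and 31.6, 30.0 and 30.6 RPKM in shWDR5. It was the member lowered the most, with a log2 fold change of -0.75 ± 0.05 (adjusted p = 1.93e-06), or 1.68-fold lower. EVPL, the heterodimer partner of periplakin (chr17:74002927-74023507), measured 21.4, 21.2 and 20.4 RPKM in shLuc and 14.3, 13.3 and 13.2 RPKM in shWDR5. It was lower in all 3 shWDR5 libraries, with a log2 fold change of -0.63 ± 0.06 (adjusted p = 6.50e-06), or 1.55-fold lower.

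The ratio of EVPL to PPL moved little, from 0.403, 0.399 and 0.418 in shLuc to 0.452, 0.443 and 0.431 in shWDR5. This log2 difference of 0.12 was still without overlap (exact permutation p = 0.1). DSP and PPL, which were at near-equal levels in shLuc with ratios of 1.05, 1.05 and 1.14, reached ratios of 2.57, 2.39 and 2.61 in shWDR5. This pair was chosen after its values were seen and was not tested. The summed plakin level overlapped between groups, at 125 to 130 RPKM in shLuc and 115 to 127 RPKM in shWDR5, while the share of DSP went from 43.5% ± 0.99 to 63.6% ± 1.15, that of PPL from 40.2% ± 0.97 to 25.2% ± 0.75 and that of EVPL from 16.3% ± 0.09 to 11.1% ± 0.45.

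Other desmosome components were counted from a list of 7 genes; the counts of this and the following lists stand beside 26.6% higher and 29.9% lower over all genes tested. Of the 5 tested, JUP, PERP and CDSN rose, none fell, and PKP4 and DSC1 did not pass; DSG1 and DSG4 were below the filter. JUP encodes plakoglobin, which binds the tails of all desmosomal cadherins. It measured 115, 114 and 102 RPKM in shLuc and 140, 122 and 134 RPKM in shWDR5, a log2 fold change of 0.26 ± 0.07 (adjusted p = 0.00856). PERP, a tetraspan membrane protein of desmosomes and a p63 target, measured 86.4, 109 and 108 RPKM in shLuc and 135, 146 and 173 RPKM in shWDR5 (log2 fold change 0.59 ± 0.11, adjusted p = 0.000823). CDSN, the corneodesmosome adhesion protein, was low but rose from 1.30 ± 0.19 to 2.60 ± 0.34 RPKM (log2 fold change 0.99 ± 0.13, adjusted p = 0.000107). PKP4 was at 19.9 ± 0.21 and 19.8 ± 0.53 RPKM (adjusted p = 0.932). DSP, JUP, PERP and CDSN were thus higher, whereas the cadherin DSG3, PKP2 and the envelope plakins were lower. DSG2, DSC1, DSC2, DSC3, PKP3 and PKP4 did not pass.

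Of the proteins known to work with PPL and EVPL in the cornified envelope, 2 of the 5 tested were higher, 2 were lower and SCEL was not past the threshold. TGM5, a transglutaminase of the epidermis, fell 5.40-fold from 1.89 ± 0.15 to 0.35 ± 0.04 RPKM (adjusted p = 2.72e-07), and IVL, the envelope protein involucrin, fell 1.40-fold to 8.64 ± 1.14 RPKM (adjusted p = 0.00284). KAZN, whose product kazrin binds periplakin, rose 1.94-fold to 4.32 ± 0.04 RPKM (adjusted p = 1.17e-06), and TGM1 rose 1.69-fold to 0.92 ± 0.13 RPKM (adjusted p = 0.00923). Of the 12 keratins, which DSP anchors, 10 rose, none fell and KRT8 and KRT18 did not pass. KRT19 was 3.57-fold higher but low, going from 0.89 ± 0.05 to 3.18 ± 0.22 RPKM. KRT6A was 3.56-fold higher, from 27.5 to 97.7 RPKM, and KRT16 2.48-fold, from 102 to 252 RPKM. In shLuc, KRT8 and KRT18 were at 894 and 890 RPKM. Reads of KRT6A, KRT6B and KRT6C, and of KRT14, KRT16 and KRT17, can be hard to assign between such similar copies, so their single values are uncertain.

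Hemidesmosomes join the same keratins to the basement membrane, and 8 of the 9 genes listed for them and their laminin ligand rose, with ITGA6 not past the threshold. LAMA3 rose 2.27-fold and COL17A1 2.12-fold, and the plakin PLEC rose 1.77-fold (adjusted p = 2.26e-06), in the direction of DSP and opposite to PPL and EVPL. In the adherens junction core, CDH1 (E-cadherin) fell 2.05-fold from 103 ± 4.24 to 50.3 ± 1.43 RPKM (adjusted p = 2.64e-07), while CDH3 (P-cadherin) rose 1.20-fold and CTNNA1 1.15-fold. CTNNB1 was 1.11-fold higher at an adjusted p of 0.0343, a call that was lost with library totals alone (0.149) and without any 1 of 4 libraries (0.0921 to 0.101). CTNND1 did not pass, at 1.49 ± 0.10 RPKM in shLuc and 1.31 ± 0.13 RPKM in shWDR5. However, 5905 of its 6350 exon bases are shared with the read-through gene TMX2-CTNND1, which held 0 reads in every library. How reads in shared bases were counted is not given, so the level of CTNND1 cannot be taken from its count.

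Of 13 factors known to regulate desmosome or other epithelial genes, 3 rose and 4 fell, shares near those over all genes. GRHL1, a grainyhead-like factor known to act on desmosomal cadherin genes, fell 1.46-fold to 14.8 ± 0.57 RPKM (adjusted p = 5.13e-05), while GRHL2 of the same family rose 1.24-fold (adjusted p = 0.000983) and GRHL3 did not pass (adjusted p = 0.379). OVOL1 fell 2.39-fold, and TP63 rose 1.34-fold. Among 8 mesenchymal factors and markers 6 rose, 1 fell (TWIST1) and SNAI1 did not pass. SNAI2, a repressor known to bind the E-box marked above, rose 2.43-fold to 19.9 ± 1.93 RPKM (adjusted p = 9.35e-07), CDH2 rose 3.33-fold and FN1 6.13-fold. ZEB2, counted among the 6, held 2 to 3 reads a library in shLuc and 22 to 34 in shWDR5, and passed the filter only through the latter. Of 8 proteases and kinases linked to desmosome turnover, MMP9 rose 12.8-fold and SRC 1.32-fold, and 4 fell, among them EGFR and PRKCA by 1.21-fold and 1.24-fold.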

How the data were processed

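Poly-A RNA-seq libraries (TruSeq, a kit that does not mark strand) of shLuc and shWDR5 MCF10DCIS.com cells, 3 each, were analysed. The authors deposited raw read counts per gene, which per the submitters' processing notes came from TopHat2 2.1.0 alignment to hg19 (GRCh37) and featureCounts; other settings are not given in the sources used here. The deposited gene length, another column of that table, served for RPKM. The authors' own edgeR comparison (fold changes and p-values) was not used.

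Genes were filtered with filterByExpr and tested with edgeR 4.0.16 (TMM factors, quasi-likelihood test, Benjamini-Hochberg over all genes tested) on the counts. An SE is the log2 fold change divided by the root of F, and edgeR's log2 fold changes include its prior count. DESeq2 1.42.0 and limma-voom 3.58.1 were alternatives. The procedure was tested on simulated data with far fewer changed genes than were called here. That test does not cover so broad a change. Exact permutation tests used SciPy 1.17.1. Promoter sequences come from RefSeq (GRCh38.p14), while gene coordinates are hg19. All 10 members, WDR5, JUP, PERP and PKP4, and up to 4 called genes per related list were eligible to be named. KRT8, KRT18, ITGA6, SCEL, DSC1, DSG1, DSG4 and SNAI1 are named where a count leaves them out. TWIST1 is named as the 1 listed mesenchymal gene that fell. GRHL2 and GRHL3 were added after their values were seen. The members and lists were chosen with earlier results of these data known. Some items of the related lists are not reported here.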

Additional observations from a re-analysis of the deposited data

How the results depend on the processing

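The calls of DSP (higher) and of PPL, EVPL, PKP2 and DSG3 (lower) passed under all 12 alternative fits: RLE size factors, library totals alone, no filter on low counts, DESeq2, limma-voom, the replicate number as a block, and each of the 6 libraries left out in turn. Their log2 fold changes ranged from -0.81 to -0.72 for PPL, -0.69 to -0.60 for EVPL, -0.54 to -0.46 for PKP2, -0.47 to -0.39 for DSG3 and 0.42 to 0.53 for DSP. PKP1, tested only through its counts in shWDR5, ranged from 2.09 to 2.85. The stricter threshold (log2 fold change of at least 0.6 either way and over 0.5 RPKM) left 1274 genes higher and 1688 lower, 0 members higher and 2 lower, and 22 genes of the related lists higher and 4 lower, since it asks for more. Of the 42 named genes, 37 kept their direction and their side of the threshold in all 12 fits; the exceptions were DSC2, DSC3, PKP3, PKP4 and CTNNB1. Differences near zero changed sign: with 1 library left out, DSC2 ranged from -0.0097 (without shWDR5 replicate 3) to 0.19, DSC3 from -0.084 to 0.026 and PKP4 from -0.018 to 0.016, and PKP4 was 0.0116 with RLE size factors and 0.0115 with DESeq2. CTNNB1 lost its call with library totals alone and without shLuc replicate 2 or 3 or shWDR5 replicate 1 or 2. The causes were not tested.

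Same-numbered libraries correlated in their deviations from the group means at 0.372, 0.0358 and 0.116 over 16117 genes, and shLuc replicate 2 correlated best with shWDR5 replicate 3 (0.210), so the numbers were not taken to pair the libraries. With the replicate block, 4901 genes were higher and 5511 lower, and PKP3 joined the lowered members (log2 fold change -0.11, adjusted p = 0.0270). Depth limits PKP1, with 1 to 19 reads a library, and leaves DSG1 and DSG4 untested. The exact tests of ratios cannot go below 0.1 with 3 libraries a group.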
